A study of Mus musculus with 6 samples.

Results

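The genes described here encode transferases that build glycans: sialyltransferases, galactosyl-, N-acetylglucosaminyl- and glucuronyltransferases, the enzymes that start or branch O- and N-linked glycans, fucosyltransferases, carbohydrate and heparan sulfate sulfotransferases, and hyaluronan synthases. Members were the probes whose single platform gene symbol begins with St3gal, St6gal, St8sia, B3g, B4gal, Galnt, Fut and a digit, Mgat, Gcnt, Chst, Ndst, Hs2st, Hs3st, Hs6st or Has and a digit. This gave 98 probes of 81 genes, of 10698 genes named on the array. Of these, 84 probes of 72 genes had a value on all 6 arrays and were tested, and 9 genes had no complete probe. The name rule uses no measured value, but the members were chosen with earlier results of these data known. The shares of members given below are therefore descriptions.

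RNA was from RAW 264.7 cells, an established mouse macrophage line, so the samples stand for a cell line and not for primary macrophages. The treated cells received lipopolysaccharide (LPS, the endotoxin of Gram-negative bacteria) at 100 ng/ml together with LPS-binding protein (LBP, the serum protein that hands LPS to its receptor) at 100 pM, and the untreated cells received neither. Both were cultured for 2 h, and no animal, transgene or further agent is labelled. Each of 6 two-colour arrays compared treated with untreated RNA, 3 with the treated RNA as Cy5 and 3 with it as Cy3, numbered as sets 1 to 3 in each orientation. Every value below is a log2 ratio of treated over untreated RNA, after the signs of the arrays with treated RNA in Cy3 were turned. Values per gene are the mean of the 3 sets ± SD (n = 3 sets), each set being the mean of its array pair. Array values are ratios, so they carry no expression level, and a level of one gene cannot be set against that of another. Changes in the mixture of cells and changes of RNA per cell cannot be told apart in bulk RNA.

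Glycans are assembled mostly in the Golgi, where each transferase adds a particular sugar or sulfate from an activated donor to a growing chain. Sialic acids usually cap the chains, are read by lectins such as the Siglecs, and in long alpha-linked polymers form polysialic acid. In macrophages and other leukocytes, sialylated and fucosylated glycans form selectin ligands, and sulfated glycosaminoglycans on proteoglycans bind chemokines and growth factors.

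"Higher", "lower", "rose" and "fell" are used only of genes with an adjusted p under 0.05 in limma's test of the set means against 0, adjusted by Benjamini and Hochberg over all 11231 features. Whether the sets came from different cultures is not labelled, so the spread between sets may be technical. Limma also draws the spread of each gene toward that of all features (prior degrees of freedom 4.16). A p-value therefore does not rest on the printed SD alone. Of the 72 tested members, 16 (22.2%) passed, 7 higher and 9 lower, against 14.8% of all features. The higher members were 9.72% of those tested, against 7.35% of all features, and the lower members were 12.5%, against 7.45%. Members that moved by over 1.2-fold made up 19.4%, against 10.5% of all features. At over 1.4-fold the shares were close, 4.17% of members and 3.87% of all features. Most members moved little: 58 of 72 stayed within 1.2-fold, and the median member stood at -0.02, against 0.00 for all features. Only St8sia4 passed 2-fold among the members. The 16 called members had 1 sign in all 3 sets and in the mean of both dye orientations, and 14 of them had it on all 6 arrays. The calls rest on the same set values, so an equal sign in all sets largely follows from the call. The sign of the mean was seen on all 6 arrays for 29.2% of tested members and 19.1% of all features.

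**Figure D1:**
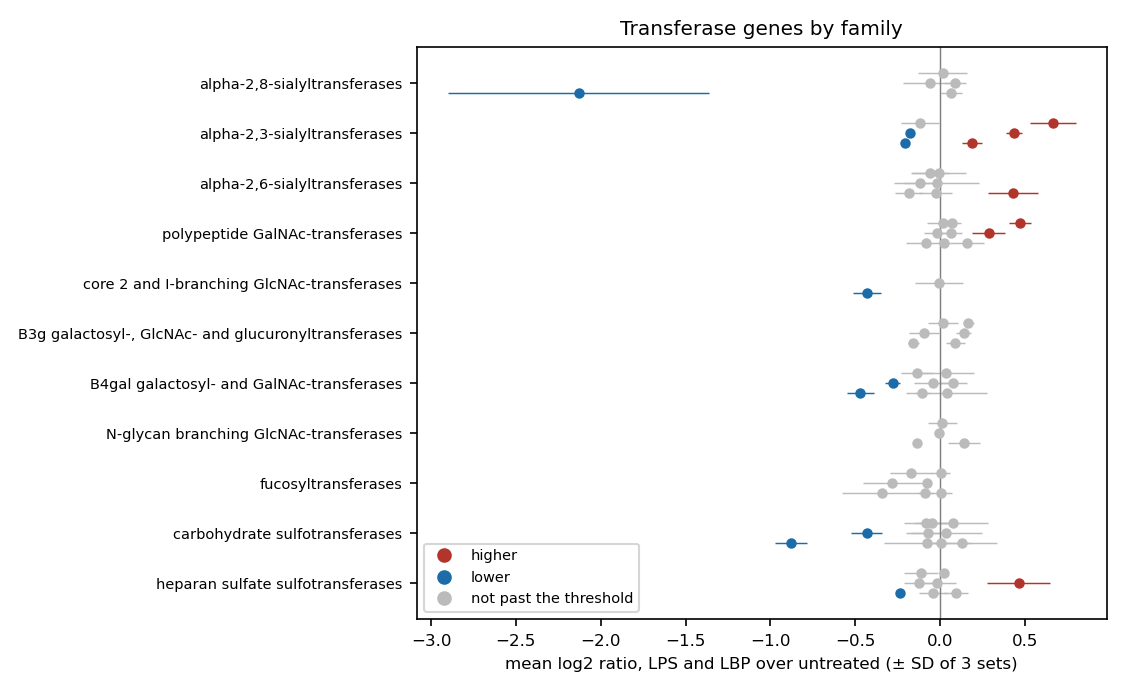
Mean log2 ratio of LPS and LBP over untreated for the 72 tested transferase genes, in rows by enzyme family. Points are means of 3 sets and bars their SD. St8sia4 lies far below all other members at -2.13, while fucosyl-, B3g and N-glycan branching enzymes show only grey points.

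St8sia4 encodes a polysialyltransferase, the enzyme that builds polysialic acid chains on carriers such as the neural cell adhesion molecule and neuropilin 2. It fell in LPS- and LBP-treated cells by 4.38-fold, to -2.13 ± 0.77 (adjusted p = 0.00324, 6 of 6 arrays). The SD of its sets was above the median of 0.08 over all features, and limma drew its spread down for the test. The arrays with treated RNA in Cy5 gave -1.93, -1.62 and -3.01 in sets 1, 2 and 3, and those with it in Cy3 gave -1.72, -1.50 and -3.01. Both arrays of set 3 were lower than the other 4, and the orientations of each set lay close together. It ranked first from the bottom of 11231 features in set 3 and second in sets 1 and 2. On single arrays with treated RNA in Cy5 it ranked 14th, 6th and first in sets 1, 2 and 3, and with it in Cy3 second, second and first. Without set 3 its mean was -1.69 and its rank second. The gene was named for this report with that rank known. Its rank, adjusted p and count of arrays are therefore descriptions and not independent support. A single probe measures it.

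The other alpha-2,8-sialyltransferases did not pass. St8sia2, the second polysialyltransferase gene, stood at 0.06 ± 0.06 (95% interval -0.05 to 0.18, adjusted p = 0.458), so a change of the size seen for St8sia4 lay outside its interval. St8sia3 stood at 0.09 ± 0.06 (95% interval -0.03 to 0.20). St8sia1, the GD3 ganglioside synthase gene, stood at 0.01 ± 0.15 (95% interval -0.14 to 0.17). St8sia5 stood at -0.06 ± 0.16, with 0.27 as the mean of the arrays with treated RNA in Cy5 and -0.39 with it in Cy3. Ratios do not show whether these 4 genes are expressed in the cells.

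Promoter windows are shown for the genes with the largest falls among the members, from 250 bases before to 50 after the start site, as RefSeq gives them for GRCm38.p6. The St8sia4 window is chr1:95667545-95667844 on the minus strand, and the Chst12 window is chr5:140505359-140505658 on the plus strand. Capitals mark matches to 4 motifs searched on both strands: an NF-κB-like motif of GGG, any 5 bases and CC, an AP-1-like motif TGANTCA, an interferon response element-like motif of TTTC, any 2 bases and TTTC, and the TATA box motif TATAAA.
St8sia4: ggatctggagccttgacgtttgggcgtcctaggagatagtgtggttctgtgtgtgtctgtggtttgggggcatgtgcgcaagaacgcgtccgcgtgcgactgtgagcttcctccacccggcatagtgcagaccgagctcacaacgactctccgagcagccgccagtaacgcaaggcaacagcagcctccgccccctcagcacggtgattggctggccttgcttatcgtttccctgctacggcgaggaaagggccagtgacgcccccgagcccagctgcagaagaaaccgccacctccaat
Chst12: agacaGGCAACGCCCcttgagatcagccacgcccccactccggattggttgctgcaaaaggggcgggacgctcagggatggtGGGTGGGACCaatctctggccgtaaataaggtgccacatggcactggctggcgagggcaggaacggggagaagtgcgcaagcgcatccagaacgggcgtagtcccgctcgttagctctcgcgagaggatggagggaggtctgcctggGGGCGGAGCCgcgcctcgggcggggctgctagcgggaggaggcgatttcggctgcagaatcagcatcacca
No letters of the 4 motifs occur in the St8sia4 window, and the Chst12 window holds the NF-κB-like letters 3 times, and no other motif. Those letters are in 50.8% of all 32851 promoter windows, the AP-1-like ones in 7.81%, the interferon response element-like ones in 3.44% and the TATA box in 13.6%. The St8sia1 window held the NF-κB-like letters once and the St8sia2 window none of the 4. No window was available for St8sia3, St8sia5 or the called gene St3gal1, so these were not searched. Both printed windows were GC-rich, with 61.3% G and C and 22 CG pairs for St8sia4 and 65.0% and 24 CG pairs for Chst12, against medians of 52.7% and 7 over all windows. Matches are descriptions of letters and not of binding.

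**Figure D2:**
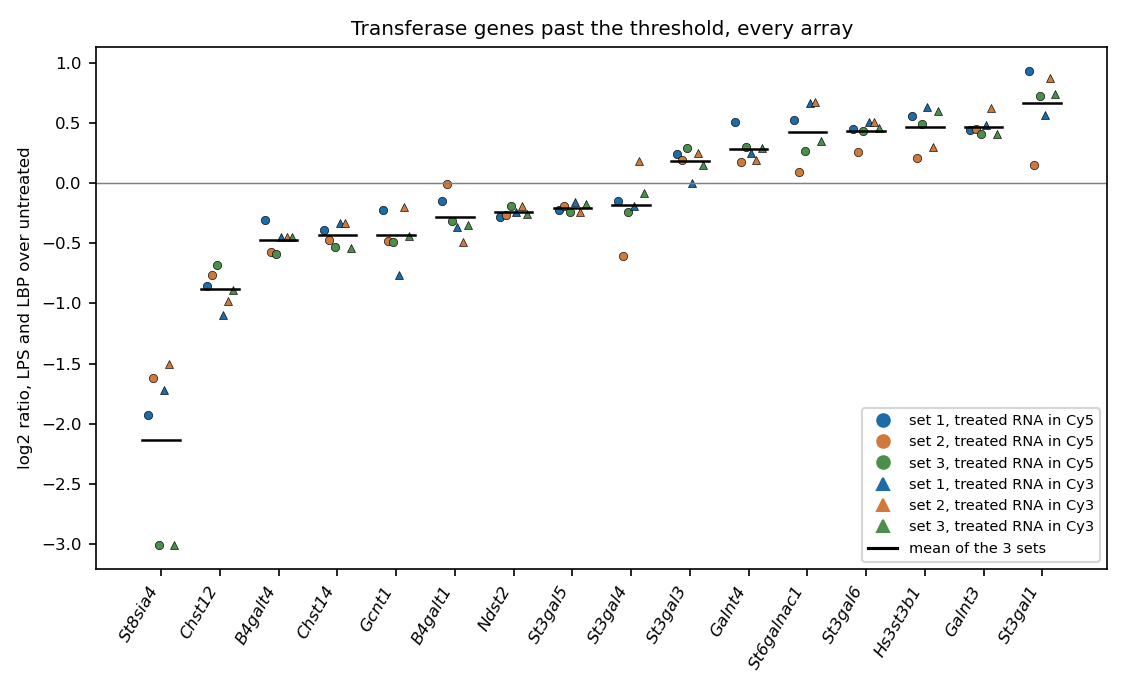
Log2 ratio of LPS and LBP over untreated on each of the 6 arrays for the 16 transferase genes past the threshold. Circles are arrays with treated RNA in Cy5, triangles those with it in Cy3, colours are sets and bars the mean of the sets. St8sia4 sits between -3.01 and -1.50, and St3gal4 spans 0 although its set means lie close together.

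Among sialyltransferases that cap galactose, the St3gal family had 3 of 6 tested members higher and 2 lower, against 7.35% and 7.45% of all features. The 2 lower calls and that of St3gal3 depended on the processing. St3gal1, which sialylates the core of mucin-type O-glycans, rose 1.58-fold (0.66 ± 0.13, adjusted p = 0.00114), with sets at 0.75, 0.51 and 0.73. Its arrays ran from 0.15 to 0.93, the lowest being that of set 2 with treated RNA in Cy5. Without the array of set 2 with treated RNA in Cy3 its adjusted p was 0.0852, and with only the arrays with treated RNA in Cy5 it was 0.117. St3gal6, which sialylates type 2 chains, rose 1.35-fold (0.43 ± 0.05, adjusted p = 0.00199), with sets at 0.48, 0.38 and 0.45 and adjusted p = 0.0577 on the arrays with treated RNA in Cy5 alone.

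The remaining St3gal calls were small. St3gal3 stood higher at 0.19 ± 0.06 (adjusted p = 0.0499, 5 of 6 arrays), and passed in only 2 of 20 alternatives. Its call ended on leaving out any set or any array in turn, at adjusted p up to 0.316. St3gal5, the GM3 synthase gene that opens the ganglioside series, fell 1.15-fold (-0.21 ± 0.01, adjusted p = 0.0274). All of its 6 arrays lay between -0.24 and -0.16, yet the call ended on leaving out any set or any array in turn, at adjusted p up to 0.213, and in each dye orientation alone (0.102 and 0.131), so that it passed in 9 of 20 alternatives. St3gal4, known for selectin ligands, had -0.18 ± 0.02 (adjusted p = 0.0451), but its arrays ran from -0.60 to 0.19. The mean was -0.33 with treated RNA in Cy5 and -0.03 with it in Cy3. With single arrays in the fit, St3gal4 had an adjusted p of 0.0741 when sets were blocks and 0.33 without blocks, and it passed in 3 of 20 alternatives. Leaving out any set or any array in turn ended its call, with means from -0.31 to -0.05 and adjusted p up to 0.808. St3gal2 did not pass, at -0.12 ± 0.11.

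Of 7 tested genes of the St6gal and St6galnac families, 1 rose and 6 did not pass, while 7.35% of all features were higher. St6galnac1, which makes the sialyl-Tn antigen, rose 1.34-fold (0.43 ± 0.15, adjusted p = 0.00808), with sets at 0.59, 0.38 and 0.31 and all 6 arrays above 0. Its adjusted p was 0.166 without the array of set 2 with treated RNA in Cy3 and 0.164 with only the arrays with treated RNA in Cy5. St6galnac6 was the lowest of the family at -0.18 ± 0.08 (adjusted p = 0.0649, 6 of 6 arrays). St6galnac2 stood at -0.01 ± 0.16, with 95% interval from -0.17 to 0.16. A second St6galnac2 probe, measured on 5 arrays, ran from -0.65 to 0.45.

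Initiation of mucin-type O-glycans, by the polypeptide GalNAc-transferases, showed 2 of 9 tested genes higher and 7 not past the threshold. Of all features, 7.35% were higher. Galnt3 rose 1.38-fold (0.47 ± 0.06, adjusted p = 0.00178), with sets at 0.46, 0.54 and 0.41. Both of its probes passed when tested singly, at 0.54 and 0.39, and its call stood under all 20 alternatives. Galnt4 rose 1.22-fold (0.29 ± 0.10, adjusted p = 0.0178, 6 of 6 arrays). Its adjusted p was 0.074 without set 1, 0.158 without set 3 and between 0.0559 and 0.121 on leaving out in turn each of the 4 arrays of sets 1 and 2. Each dye orientation alone gave adjusted p of 0.104 and 0.0932. Galnt14, at 0.16 ± 0.10, and Galnt6, at -0.08 ± 0.12, were the highest and lowest of those that did not pass.

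Gcnt1, which branches O-glycan cores into the form that carries leukocyte selectin ligands, fell 1.35-fold (-0.43 ± 0.08, adjusted p = 0.00302). Sets stood at -0.49, -0.34 and -0.46, and its 2 probes at -0.45 and -0.41 both passed singly. On single arrays the first ran from -0.57 to -0.32, and the second from -1.01 to 0.12. The adjusted p was 0.0549 without set 3, 0.0898 without the array of set 2 with treated RNA in Cy5 and 0.0563 without the array of set 1 with treated RNA in Cy3. Neither dye orientation passed alone, at adjusted p of 0.0692 and 0.109. Gcnt2, the I-branching enzyme gene, stood at -0.01 ± 0.14, and its complete probes had means of -0.03 and 0.02. Another Gcnt2 probe, measured on 3 arrays, ran from -0.26 to -0.10.

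Among the B4gal genes, 2 of 8 tested were lower and 6 did not pass, while 7.45% of all features were lower. B4galt4, a galactosyltransferase gene, fell 1.39-fold (-0.47 ± 0.08, adjusted p = 0.00206), with sets at -0.38, -0.51 and -0.52 and arrays from -0.59 to -0.31. The arrays with treated RNA in Cy5 alone gave adjusted p = 0.0501. B4galt1, the main galactosyltransferase of N-glycan antennae, fell 1.21-fold (-0.28 ± 0.04, adjusted p = 0.0104, 6 of 6 arrays). Its mean was -0.16 with treated RNA in Cy5 (adjusted p = 0.287) and -0.40 with it in Cy3, and its call ended without set 3 (adjusted p = 0.135), without the array of set 2 with treated RNA in Cy5 (0.0787) and without the arrays of sets 1 and 2 with it in Cy3 (0.0925 and 0.276). B4galt6 stood at -0.14 ± 0.09 and B4galt2 at 0.07 ± 0.09, neither past.

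None of the 6 tested B3g genes, the 7 tested Fut genes or the 4 tested Mgat genes passed in limma's test, while 3, 3 and 2 of them had an unadjusted p under 0.05, as had 28.0% of all features. The B3g genes lay between -0.16 for B3gnt3 and 0.17 for B3galnt1, whose adjusted p was 0.06. Fut7, the fucosyltransferase gene of sialyl Lewis x in leukocytes, stood at -0.34 ± 0.23 (adjusted p = 0.0513, 6 of 6 arrays), with sets at -0.59, -0.13 and -0.31. Fut4, named after its values were seen, stood at -0.28 ± 0.18 (adjusted p = 0.0504, 6 of 6 arrays). With the set as a random block over single arrays Fut7 had adjusted p = 0.0139, and without set 2 it had 0.000617. The latter fit holds only the values of sets 1 and 3, so it leans on the spread limma pools over all features. Fut2 was at 0.00 ± 0.06. Fut4-ps1, at -0.09 ± 0.05, is a pseudogene that the name rule also took in, chosen like Fut4 after its values were seen, and cross-hybridisation with Fut4 was not tested. Mgat1, the enzyme that opens the way to hybrid and complex N-glycans, stood at -0.14 ± 0.01 (adjusted p = 0.0963, 6 of 6 arrays), and Mgat4c at 0.14 ± 0.10. Mgat5, also chosen after its values were seen, stood at -0.01 ± 0.02, with -0.18 with treated RNA in Cy5 and 0.17 with it in Cy3.

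Sulfotransferases, which place sulfate on glycosaminoglycans and other glycans, had 1 higher and 3 lower genes among 18 tested. Of all features, 7.35% were higher and 7.45% lower. Chst12, a chondroitin 4-O-sulfotransferase gene, fell 1.84-fold (-0.88 ± 0.10, adjusted p = 0.000216). Its arrays gave -0.86, -0.77 and -0.68 with treated RNA in Cy5 and -1.10, -0.98 and -0.89 with it in Cy3, in the order of sets 1 to 3. All 6 arrays were low, it ranked 22nd from the bottom of all features, and its call stood under all 20 alternatives. Chst14, the dermatan 4-O-sulfotransferase gene, fell 1.35-fold (-0.43 ± 0.09, adjusted p = 0.00339), with arrays from -0.54 to -0.33. Its adjusted p was 0.0508 without set 3, 0.0522 without the array of set 2 with treated RNA in Cy5 and 0.0582 on the arrays with treated RNA in Cy3 alone. The related chondroitin 4-O-sulfotransferase gene Chst11 did not pass, at -0.07 ± 0.13, and its 2 probes differed in sign, at -0.22 and 0.07. The other Chst genes that did not pass ran from -0.09 for Chst4 to 0.13 for Chst2, whose arrays ranged from -0.50 to 0.61.

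Of 8 tested heparan sulfate sulfotransferase genes, 1 was higher and 1 lower, against 7.35% and 7.45% of all features. Hs3st3b1, a 3-O-sulfotransferase gene, rose 1.38-fold (0.46 ± 0.19, adjusted p = 0.0101), with sets at 0.59, 0.25 and 0.54. That value is the mean of a probe at 0.79, which passed singly (adjusted p = 0.00143), and a probe at 0.14, which did not (adjusted p = 0.249). The call ended without set 1 (adjusted p = 0.0609), without set 3 (0.114), without the array of set 2 with treated RNA in Cy3 (0.0574) and in each dye orientation alone (0.0799 and 0.057). Ndst2, an N-deacetylase and N-sulfotransferase gene, fell 1.18-fold (-0.24 ± 0.02, adjusted p = 0.0167), with 6 arrays between -0.28 and -0.19. Its adjusted p was 0.0656 without set 1, 0.149 without set 3, and between 0.0532 and 0.172 on leaving out in turn each of the 4 arrays of sets 1 and 2. In each dye orientation alone it was 0.0892 and 0.0962. Hs2st1, the 2-O-sulfotransferase gene, stood at -0.13 ± 0.08, and Hs6st3 at 0.09 ± 0.07. The 3 Ndst3 probes had means between -0.10 and 0.00.

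**Figure D3:**
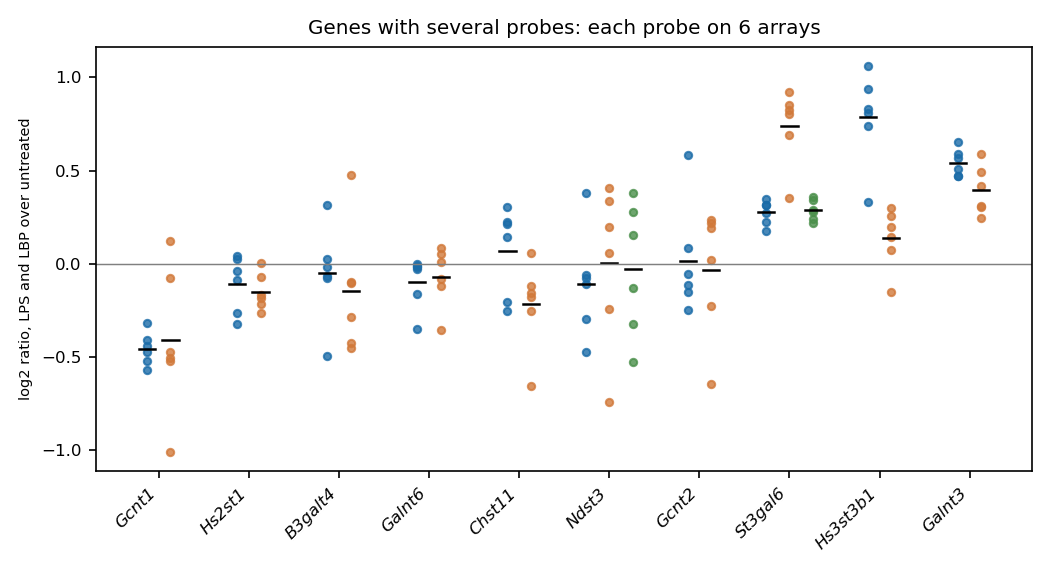
Log2 ratio of LPS and LBP over untreated for the 10 transferase genes with several complete probes. Points are the 6 arrays, each colour is a probe within its gene and bars are probe means. The probes of Hs3st3b1 stand apart, at 0.79 and 0.14, as does the St3gal6 probe at 0.74. The probe means of Gcnt1 and of Galnt3 lie close together, although the arrays of 1 Gcnt1 probe span 0.

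Probe means of a gene mostly lay close together. The 10 genes with several complete probes had ranges between probe means from 0.03 for Galnt6 to 0.65 for Hs3st3b1. St3gal6 had the next widest range, 0.46, from probes at 0.28, 0.29 and 0.74, all of which passed singly. Signs differed between probes for Chst11, Gcnt2 and Ndst3, and none of these 3 genes passed.

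Hyaluronan synthases make hyaluronan at the plasma membrane, and no Has gene was measured on all arrays. Has1 ran from -0.52 to 0.07 on 5 arrays, Has2 from -0.24 to 0.62 on 4 arrays and Has3 from -0.22 to 0.11 on 4 arrays. All 3 spans cross 0. The other genes without a complete probe were B3galt2 (0.01 to 0.62 on 5 arrays), Chst15 (-0.16 to 0.15 on 5), Fut9 (-0.50 to 0.17 on 5), Hs6st1 (-0.43 to 0.06 on 5), Mgat4d (-0.13 to 0.48 on 4) and B3galt5 (0.54 on 1). Of these, B3galt2 and B3galt5 were above 0 on every array that measured them. With missing values allowed, 80 members could be tested, 6 were higher and 8 lower, and no gene without a complete probe was among them. A second Chst4 probe had -3.35 on the only array that measured it, against -0.28 to 0.24 for the complete Chst4 probe.

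Some members that did not pass had ratios that followed the dye. The ratio was positive on all arrays of 1 orientation and negative on all arrays of the other for 6 members (8.33%), against 13.1% of all features: B3galt1, B4galnt1, Fut8, Hs6st2, Mgat5 and St8sia5, named for that pattern. A dye term fitted to the 6 arrays passed for 0 of 72 members in limma, against 0.499% of all features (12 members at an unadjusted p under 0.05), and its lowest adjusted p among members was 0.0783, for B4galnt1. Hs6st2, chosen from these 6 after its values were seen, averaged 0.24 with treated RNA in Cy5 and -0.28 with it in Cy3, which the set mean cancels to -0.02. No called member showed opposite signs on this measure.

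**Figure D4:**
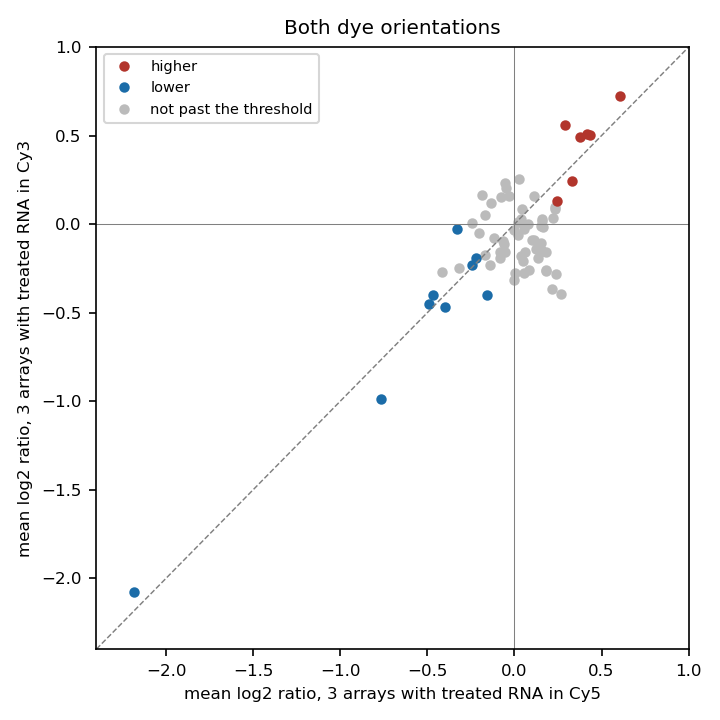
Mean log2 ratio of LPS and LBP over untreated for the 72 tested transferase genes, on the 3 arrays with treated RNA in Cy5 (x axis) and the 3 with it in Cy3 (y axis). The dashed line marks equal values. The called genes lie in the quadrants of agreeing sign, with St8sia4 at -2.18 and -2.08, and the grey points scatter around 0 in all quadrants.

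Enzymes that supply donors, extend backbones, degrade glycans or carry them were described by 6 lists from textbook knowledge. Counts stand beside 7.35% of all features higher and 7.45% lower. Of 18 tested genes of sugar and sulfate donor supply, 3 were lower and 15 did not pass (median -0.04). Gne, the enzyme that commits UDP-GlcNAc to sialic acid synthesis, fell 1.65-fold (-0.72 ± 0.04, adjusted p = 0.000254, 6 of 6 arrays), with sets at -0.75, -0.73 and -0.67. Nanp, a phosphatase later in the same route, fell 1.34-fold (-0.43 ± 0.03, adjusted p = 0.00189, 6 of 6 arrays), with sets at -0.45, -0.44 and -0.39. Slc26a2, a sulfate transporter gene, fell 1.28-fold (-0.36 ± 0.08, adjusted p = 0.00629, 6 of 6 arrays), and its adjusted p was 0.125 without the array of set 2 with treated RNA in Cy5. Gne and Nanp kept their calls under all 20 alternatives. The other genes of the sialic acid route, named after their values were seen, did not pass: Nans stood at -0.06 ± 0.01, Cmas at -0.12 ± 0.05 and the CMP-sialic acid transporter gene Slc35a1 at 0.02 ± 0.06.

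**Figure D5:**
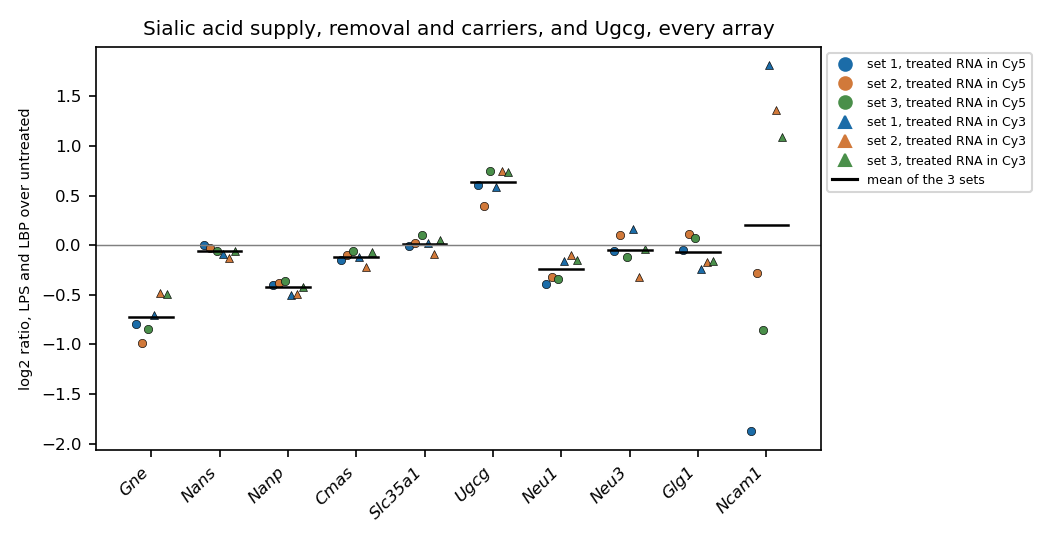
Log2 ratio of LPS and LBP over untreated on each of the 6 arrays for genes of sialic acid supply (Gne, Nans, Nanp, Cmas, Slc35a1), the glucosylceramide synthase gene Ugcg, the sialidase genes Neu1 and Neu3, and 2 genes of polysialic acid carriers (Glg1, Ncam1), chosen after their values were seen. Circles are arrays with treated RNA in Cy5, triangles those with it in Cy3 and bars the mean of the sets. Gne and Nanp lie below 0 and Ugcg above 0 on every array, and Ncam1 changes sign with the dye.

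Among enzymes of other O-linked and lipid-linked glycans, 3 of 11 tested were higher and 2 lower (median 0.07). Ugcg, the glucosylceramide synthase that opens glycosphingolipid synthesis, rose 1.56-fold (0.64 ± 0.09, adjusted p = 0.000751, 6 of 6 arrays), and Pofut2, a protein O-fucosyltransferase gene, rose 1.26-fold. C1galt1, the core synthase of mucin-type O-glycans, was higher at 0.21 ± 0.02 (5 of 6 arrays). The Notch-modifying gene Lfng fell 1.27-fold (-0.34 ± 0.19, adjusted p = 0.0331). Backbone enzymes of glycosaminoglycans had 1 lower gene and 9 not past among 10 tested (median -0.03), the lower being Extl2 at -0.28 ± 0.08. N-glycan assembly and trimming had 1 higher and 1 lower among 19 tested (median 0.02), Man1a at 0.25 ± 0.02 and Alg2 at -0.21 ± 0.04. Ugcg kept its call under all 20 alternatives, while without set 3 the adjusted p was 0.0723 for Pofut2, 0.21 for C1galt1, 0.238 for Lfng, 0.113 for Extl2, 0.143 for Man1a and 0.235 for Alg2. C1galt1 had adjusted p = 0.959 on the arrays with treated RNA in Cy5 alone.

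Glycan-degrading enzymes had 1 higher and 3 lower genes among 20 tested (median -0.03). Hyal1, a hyaluronidase gene, fell 1.44-fold (-0.52 ± 0.06, adjusted p = 0.00105, 6 of 6 arrays), although its arrays ran from -0.96 to -0.17. Neu1, the lysosomal sialidase gene, fell 1.18-fold (-0.24 ± 0.03), the alpha-galactosidase gene Gla fell to -0.26 ± 0.04, and Cemip2, a cell-surface hyaluronidase gene, rose 1.25-fold (0.32 ± 0.13, 5 of 6 arrays). Without set 3 the adjusted p was 0.154 for Neu1, 0.147 for Gla and 0.149 for Cemip2, and that of Hyal1 was 0.103 without the array of set 2 with treated RNA in Cy5 and 0.069 without that of set 1 with it in Cy3. Carriers and lectin receptors had 4 higher and 1 lower gene among 20 tested (median 0.06). Sdc4, a heparan sulfate proteoglycan gene, rose 3.36-fold (1.75 ± 0.15, adjusted p = 2.8e-05, 6 of 6 arrays), and Srgn, the intracellular proteoglycan of leukocyte granules, rose 1.60-fold (0.68 ± 0.09). The Siglec gene Cd22 rose 1.61-fold (0.68 ± 0.19) and the Siglec gene Cd33 fell 1.24-fold (-0.31 ± 0.03). Sdc4 and Srgn kept their calls under all 20 alternatives, while the adjusted p of Cd22 was 0.0728 without the array of set 2 with treated RNA in Cy5, and that of Cd33 was 0.0795 without set 3. Ncam1, which encodes the best known polysialic acid carrier, was chosen after its values were seen. It gave -1.88, -0.28 and -0.85 with treated RNA in Cy5 and 1.81, 1.36 and 1.09 with it in Cy3. The orientations did not overlap and had opposite signs, and the mean was 0.21 ± 0.30 (adjusted p = 0.276).

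Of the whole table, the direction check held for all 10 genes that LPS is known to induce, each higher on 6 of 6 arrays. Macrophage markers had 2 higher, 2 lower and 3 genes not past among 7 tested, and T cell, B cell, fibroblast, endothelium and epithelium markers had 0 of 17 past the threshold in limma's test (4 at an unadjusted p under 0.05, a level that 28.0% of all features reached). Ratios cannot show whether those markers are expressed.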

How the data were processed

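Total RNA of RAW 264.7 cells was compared on 6 two-colour arrays. The authors deposited a log2 ratio for each of 16281 probes on each array. The base was read from the decimals: between 87.3% and 92.8% of non-zero values per array were log10 ratios of 7 decimals turned into log2 (tolerance 0.001 of the last decimal). Scanner, background correction and dye normalization are stated by none of the labels, and without intensities the signal over background is unknown. The number of arrays limits the precision. Ratios were read as Cy5 over Cy3, which fits the direction check in the report.

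Exact zeros (9.12% to 12.4% per array) were treated as missing. Probes were named by the platform annotation (13738 with 1 symbol, 52 with several, 2491 with none), and all 81 members matched RefSeq by gene ID. Complete probes of a gene were averaged, giving 11231 features. These were 9472 genes named by 1 symbol and 1759 complete probes with several symbols or none, each kept as its own feature. Shares of all features include those probes. Ratios with treated RNA in Cy3 were turned, arrays of a set averaged, and set means tested with limma 3.58.1 (R 4.3.3, eBayes, prior degrees of freedom 4.16, two-sided). Arrays were paired by set number. Before turning, deviations of same-numbered arrays correlated with r of 0.40, 0.43 and 0.14 across features. A deviation of the treated RNA shared by a pair would give a negative r here. After turning, arrays of a set were less alike than arrays of different sets (consensus correlation -0.441). Averaging a pair cancels such deviations, so the SD of set means can be small where arrays differ widely. What paired arrays share was not tested. The script was tested on simulated data. The members and lists were chosen with earlier results of these data known. Named genes were the members past the threshold, the highest and lowest of each family not past it, all St8sia and Has genes, members whose probes differed in sign or by over 0.5, members without a complete probe, and up to 4 called genes per related list. Genes outside this rule are marked where they are named. Alternatives changed the replicate unit, dye term, centring, scaling, missing values, zeros, probe averaging, orientation, the sets and arrays used, and the eBayes prior.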

Additional observations from a re-analysis of the deposited data

How the results depend on the processing

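The 16 called members kept their sign under all 20 alternatives, and St8sia4, Chst12 and Galnt3 kept their call under each. Of 18 named genes of the related lists, 5 kept theirs under each. St8sia4 lay between -2.41 and -1.69, with adjusted p up to 0.0445. Because St8sia4 was picked from these same values, its kept call is a description too. The 7 higher and 9 lower members came to 1 and 3 with only the arrays with treated RNA in Cy5, and to 4 and 4 with only those with treated RNA in Cy3, where 639 and 655 of all features passed, against 1663. Fewer arrays enter those fits. Leaving out a set or an array gave from 533 to 1685 features, from 2 to 6 higher members and from 3 to 9 lower members. Without set 3 the counts were 563, 4 and 3, and without set 1 they were 1056, 4 and 7. Single arrays also moved them: without the arrays of sets 1 and 2 with treated RNA in Cy5, 1030 and 533 features passed, and 823 and 734 without those with it in Cy3. Among these leave-outs, the lowest counts of members came without the set 2 array with treated RNA in Cy3 (2 higher) and without set 3 or the set 2 array with treated RNA in Cy5 (3 lower each). With the set as a replicate block over the 6 arrays (consensus correlation -0.441), 9 members were higher and 13 lower: St3gal4 was lost, and B3galnt1, B3gnt2, Fut11, Fut4, Fut7, Mgat1 and St6galnac6 were gained. With no block, 6 were higher and 10 lower. No called member or named list gene reversed in sign. The balance of the counts did turn: lower members outnumbered higher ones in the main fit, but not without set 3. Without the set 2 array with treated RNA in Cy5, 5 members were higher and 3 lower. Without the set 1 array with treated RNA in Cy3, 5 were higher and 4 lower. Some members named by the rule that were not called changed sign under at least 1 alternative. They were B4galt2, B4galt6, Chst11, Chst2, Fut2, Gcnt2, Ndst3, St6galnac2, St8sia1, St8sia3 and St8sia5. Chst2 went from 0.13 to -0.04 without the set 1 array with treated RNA in Cy5. Among members named outside that rule, B3galt1, B4galnt1, Fut4-ps1, Fut8, Hs6st2 and Mgat5 had means of opposite sign in the Cy5 and Cy3 orientations. The cause was not tested where none is given.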
